A study of Homo sapiens with 6 samples.

Results

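ORM1, ORM2 and CEBPD are acute phase genes of the liver, and their rows were read from a table of 10191 RefSeq transcripts by gene symbol, with 1 row for each of the 3 genes, all of them among the 8600 transcripts tested. The genes were chosen by their lower level in ABL1 knockdown cells in these same libraries, so the difference between the groups is given for them as a description, with no test. The cells were Huh7, an established human hepatocellular carcinoma line grown in DMEM. Cells of 3 libraries carried a scrambled short hairpin RNA (scrambled group), and cells of the other 3 carried a short hairpin RNA targeting the tyrosine kinase ABL1 (knockdown group). All were labelled as 1 week past puromycin selection, with no further treatment, and the hairpin sequences and their number are not stated. The labels name no separate culture for any replicate, so p-values here describe variation among libraries that could be technical alone.

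ORM1 and ORM2 encode the orosomucoids, also called alpha-1-acid glycoproteins. They are small, heavily glycosylated plasma proteins of the lipocalin family that hepatocytes secrete, that bind basic and neutral drugs in blood, and that increase in inflammation. CEBPD encodes C/EBP delta, a basic leucine zipper transcription factor that cytokines induce in the liver. The acute phase response runs from IL-6, IL-1 and glucocorticoids through STAT3, NF-kB, the glucocorticoid receptor and C/EBP factors to the genes of secreted proteins. Binding of C/EBP delta to the orosomucoid genes was not measured in these samples.

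ORM1 (NM_000607) lies on the plus strand of chromosome 9, at 114323056 to 114326475 in GRCh38, and ORM2 (NM_000608) lies beside it on the same strand, at 114329869 to 114333252. Each has 6 exons in the GENCODE 29 models. Of the 3 genes, ORM1 was matched in the RefSeq promoter table (GRCh38.p14). The stretch shown is chr9:114322848-114323055 on the plus strand, which ends where the GENCODE transcript begins. It is shown because C/EBP factors are the regulators in question, and the capitals mark matches to the C/EBP motif TTNNGNAA on either strand.

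ORM1 promoter: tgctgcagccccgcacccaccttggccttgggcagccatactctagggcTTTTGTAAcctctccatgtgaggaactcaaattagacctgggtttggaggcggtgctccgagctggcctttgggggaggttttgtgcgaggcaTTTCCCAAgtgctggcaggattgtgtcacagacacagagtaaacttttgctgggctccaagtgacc

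The 250 bases before the RefSeq start of ORM1 held 2 matches to TTNNGNAA, from 201 to 194 bases before the start on the plus strand and from 108 to 101 bases before it on the minus strand. At least 1 match was present in 33.2% of 35116 promoters of the same length, so the motif is common. The share of promoters with 2 matches was not counted. The STAT motif TTCNNNGAA and the glucocorticoid receptor motif TGTTCT, searched on both strands, had 0 matches in this window, and 6.57% and 12.4% of promoters held them. The HNF1 motif GTTAAT likewise had 0 matches, and 6.23% of promoters held it. The 2 marked matches therefore overlap none of these motifs, and a match is a string of letters, not a measured site.

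The orosomucoid genes are near-identical, which bears on how reads were divided between them. Their coding sequences, 603 bases each, differed at 31 bases (94.9% identical). The first 206 coding bases were the same, and the differences lay between positions 207 and 531, counted from the A of the start codon. The stretch with the most differences ran from position 314 to 403 in both genes, and the capitals mark its 18 differing bases.
ORM1 coding: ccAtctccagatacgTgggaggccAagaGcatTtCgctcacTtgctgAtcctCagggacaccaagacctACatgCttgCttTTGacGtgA
ORM2 coding: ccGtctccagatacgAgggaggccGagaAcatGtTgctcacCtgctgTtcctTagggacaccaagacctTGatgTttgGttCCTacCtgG

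Reads from this stretch carry letters of 1 gene, while reads from the start of the coding sequence do not. Over the whole transcript models, 33.7% of the 100-base windows of ORM1 also occurred in ORM2, and 35.9% of those of ORM2 occurred in ORM1. With windows of 150 bases these shares were 21.0% and 22.4%. The sources used here give neither the read length nor the authors' treatment of reads that match both genes, so the split is uncertain and the sum of the pair is given beside each gene.

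**Figure D1:**
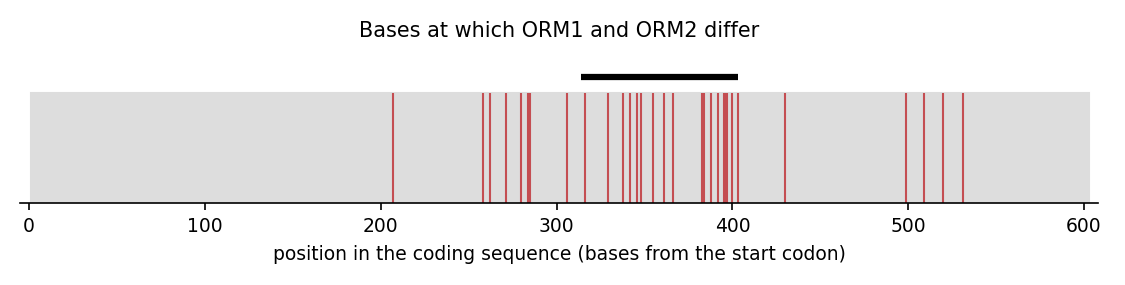
Positions at which the coding sequences of ORM1 and ORM2 differ (red lines), on the x axis in bases from the start codon, with the grey bar standing for the 603 coding bases and the black bar for the stretch of 90 bases from 314 to 403. The 31 differences lie between positions 207 and 531, and the first 206 bases are the same.

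The libraries held 6651413 to 10487862 reads counted over the 10191 transcripts, and the 8600 whose normalized count averaged 10 or more were tested. A normalized count is a read count on the common scale that the authors' values carry. The targeted gene was measured by 2 transcripts: the more abundant, NM_007313, went from 72.1 ± 1.09 to 11.1 ± 2.33 normalized counts (SD, n = 3 each), and NM_005157 from 8.74 ± 1.84 to 20.5 ± 3.75. Over all tested transcripts 24.5% rose and 27.4% fell, the background for every count below. Of 10 hepatocyte markers 7 were tested, with AFP at 235839 ± 21106 normalized counts in the scrambled group: 0 rose, and ALB, APOB, APOH and TF fell. Their summed level was 508747 to 571292 normalized counts in scrambled libraries, against 442563 to 488428 in knockdown libraries, without overlap. Normalized totals over the 10191 transcripts were lower too, at 8.57e+06 to 8.74e+06 in scrambled against 7.52e+06 to 7.78e+06 in knockdown libraries. Reads outside these transcripts are not in the totals. The gap in the summed level therefore depends on the scale kept. Of markers of other cells, 3 of 8 immune, 6 of 8 fibroblast and stellate, 4 of 6 endothelial and 6 of 7 biliary genes were tested, and 1, 4, 1 and 0 of them rose while 2, 1, 3 and 5 fell. The summed level of the fibroblast and stellate markers, mostly COL1A2, was 8912 to 9908 normalized counts in scrambled libraries, against 13259 to 14609 in knockdown libraries. The same sums were 5714 to 6331 against 6544 to 7489 for the immune markers. That sum was mostly LYZ, which rose, while LAPTM5 and FCER1G fell. The sums were 176 to 204 against 125 to 147 for the endothelial markers, and 13394 to 14200 against 8906 to 9365 for the biliary ones. The defining markers PTPRC and CD68 (immune), DCN and ACTA2 (fibroblast and stellate), KDR (endothelial) and KRT7 (biliary) were not analysed here. The part of these markers in the results below was not tested. All libraries came from the Huh7 line, so these values are levels of marker RNA in that line and give no count of cell types. In bulk RNA, fewer cells expressing a marker and less RNA per cell cannot be told apart.

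ORM1, the upstream gene of the pair, was clearly expressed in both groups. Its normalized count was 1582, 1917 and 1395 in scrambled replicates 1, 2 and 3, from 1898, 1710 and 1487 reads. It was 426, 263 and 293 in knockdown replicates 1, 2 and 3, from 436, 233 and 284 reads. The groups were separate, and the lowest scrambled value was 3.27 times the highest knockdown value. The means were 1631 ± 264 and 328 ± 86.9 (SD, n = 3 each), 4.98 times lower in the knockdown group, with a log2 change of -2.33 (SE 0.16).

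ORM2, the downstream gene of the pair, had the largest difference of the 3. Its normalized count was 829, 1043 and 771 in scrambled libraries, against 174, 114 and 110.4 in knockdown libraries. The groups did not overlap, with a gap of 4.43 times between the nearest libraries. The means were 881 ± 143 and 133 ± 35.8 (SD, n = 3 each), 6.63 times lower in the knockdown group, with a log2 change of -2.74 (SE 0.17).

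CEBPD (NM_005195), the transcription factor, is a gene of 1 exon on the minus strand of chromosome 8, at 47736909 to 47739086. It was also lower in the knockdown group, by a smaller factor. Its normalized count was 919, 667 and 748 in scrambled libraries, against 314, 226 and 243 in knockdown libraries. The groups did not overlap here either, with a gap of 2.12 times between the nearest libraries. The means were 778 ± 129 and 261 ± 46.6 (SD, n = 3 each), 2.98 times lower in the knockdown group, with a log2 change of -1.57 (SE 0.14).

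**Figure D2:**
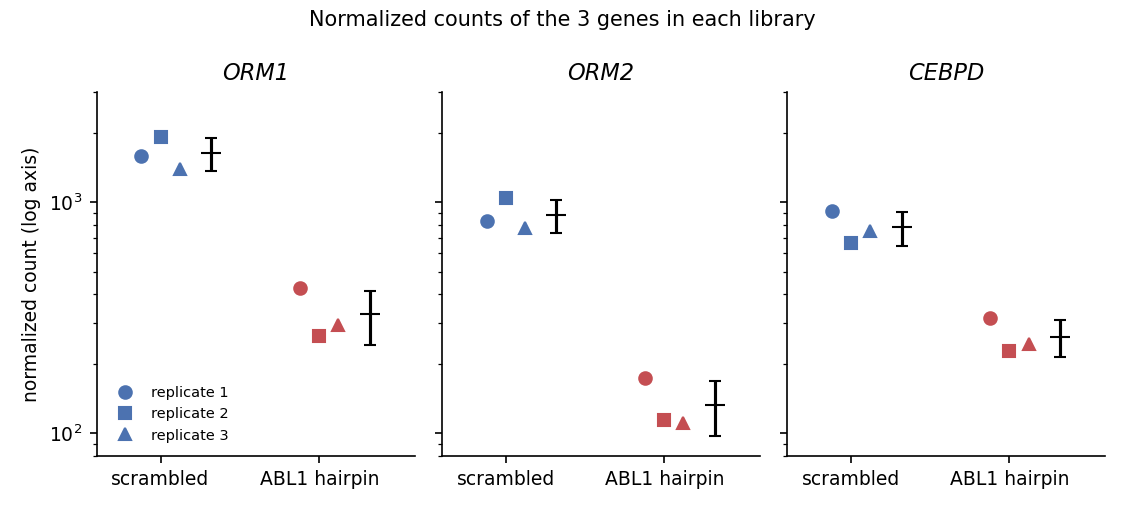
Normalized count of ORM1, ORM2 and CEBPD (y axis, logarithmic) in each library, with blue points for the scrambled and red points for the ABL1 hairpin group, shapes for replicate numbers, and black marks for the mean ± SD of 3 libraries. All knockdown points lie below all scrambled points for each gene, and the distance is largest for ORM2 (6.63 times between the means) and smallest for CEBPD (2.98 times).

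In limma's test over all transcripts 51.9% changed, 24.5% as rises and 27.4% as falls. All 3 genes are among those that fell, which their choice fixed. In 30.7% of the tested transcripts every knockdown library was below every scrambled one, as in these 3. A larger fall than that of ORM2 was seen in 22 of the 8600 transcripts, than that of ORM1 in 59, and than that of CEBPD in 266. By normalized count, not divided by length, ORM1 was above 87.4% of tested transcripts in the scrambled and 59.5% in the knockdown group. The same shares were 77.5% and 44.3% for ORM2 and 75.2% and 55.7% for CEBPD.

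**Figure D3:**
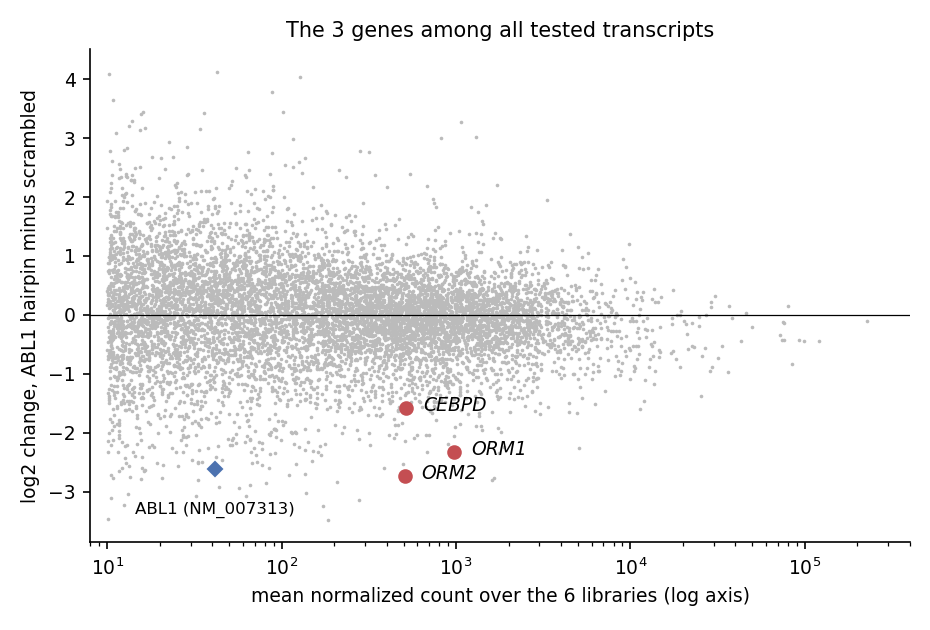
Log2 change (y axis, ABL1 hairpin minus scrambled) against the mean normalized count over 6 libraries (x axis, logarithmic) of the 8600 tested transcripts in grey, with ORM1, ORM2 and CEBPD in red and the more abundant ABL1 transcript as a blue diamond. The 3 genes lie below most points of similar abundance, with log2 changes of -2.33, -2.74 and -1.57.

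Per kilobase of transcript model, ORM1 (802 bases) was at 2034 ± 329 normalized counts in the scrambled group, ORM2 (760 bases) at 1159 ± 189 and CEBPD (2178 bases) at 357 ± 59.0 (SD, n = 3 each). In the knockdown group the same levels were 408 ± 108, 175 ± 47.0 and 119.9 ± 21.4. The order of the 3 levels was the same in both groups, but in the knockdown group the intervals of mean ± SD of ORM2 and CEBPD overlapped. With the RefSeq gene length of CEBPD, 1252 bases, its levels per kilobase were 621 and 209, which puts it above ORM2 in the knockdown group.

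The sum of ORM1 and ORM2, which does not depend on how reads were divided between them but would miss reads dropped for matching both, was 2411, 2960 and 2166 normalized counts in scrambled libraries, against 601, 378 and 403 in knockdown libraries. The means were 2513 ± 406 and 460.5 ± 122 (SD, n = 3 each), a ratio of 5.46. Of the reads of the pair, ORM1 had 65.6%, 64.7% and 64.4% in scrambled libraries, against 71.0%, 69.8% and 72.6% in knockdown libraries. The exact (Clopper-Pearson) 95% intervals ran from 62.4% to 67.4% over the scrambled and from 64.5% to 77.0% over the knockdown libraries, and cover counting error only. The shares did not overlap between the groups, although the interval of knockdown replicate 2 reached into those of all scrambled libraries and that of knockdown replicate 1 into that of scrambled replicate 1. By these shares ORM2 was the lower of the pair by the larger factor, as far as the assignment of reads allows. Orosomucoid counts per CEBPD count were 2.62, 4.44 and 2.90 in scrambled libraries, against 1.91, 1.67 and 1.66 in knockdown libraries, again without overlap.

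The spread inside the groups does not use the difference that chose the genes. ORM1 and ORM2 were on the same side of their group mean in 6 of 6 libraries, and ORM1 and CEBPD in 4 of 6. In scrambled replicate 2 ORM1 and ORM2 were highest of their group, by 0.24 and 0.26 above the mean on the log2 scale, while CEBPD was lowest of its group there, at -0.21. In scrambled replicate 1 CEBPD was highest (0.25), with ORM1 at -0.03 and ORM2 at -0.08. In knockdown replicate 1 all 3 were highest of their group, by 0.41, 0.42 and 0.28. The common side of ORM1 and ORM2 is also where shared reads would place them, and this was not tested.

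**Figure D4:**
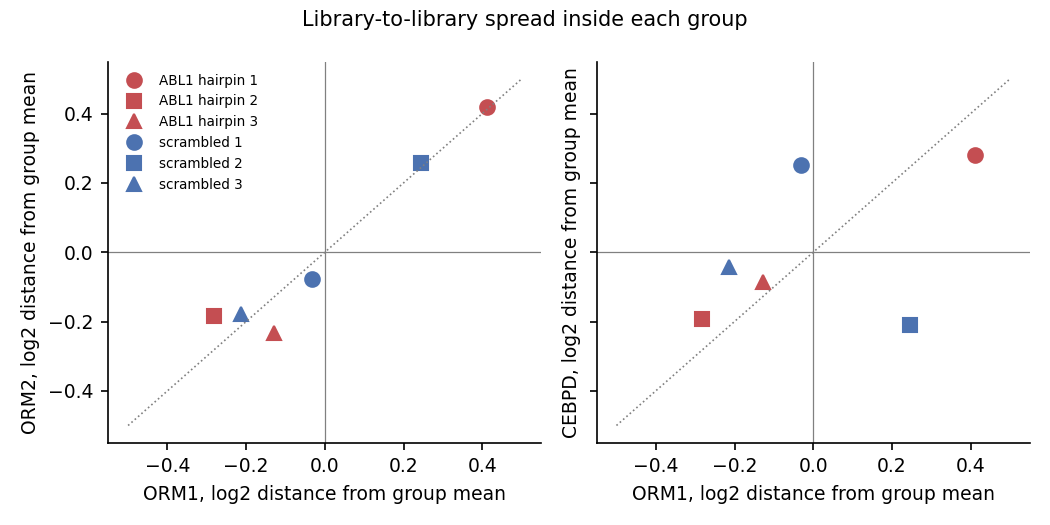
Distance of each library from its group mean on the log2 scale, for ORM1 (x axis) against ORM2 (left) and CEBPD (right), with blue points for the scrambled and red points for the ABL1 hairpin libraries and a dotted line of equal distance. ORM1 and ORM2 lie near that line in all 6 libraries, while scrambled replicates 1 and 2 lie away from it for CEBPD.

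The transcripts nearest to each gene were found by the root mean square distance between log2 values centred on their mean over the 6 libraries, among 4300 transcripts at or above the median abundance. For ORM1 the nearest was CPN1 (distance 0.17), the catalytic subunit of plasma carboxypeptidase N, itself a secreted liver enzyme. CPN1 was at 436, 465 and 448 normalized counts in scrambled libraries, against 130.1, 91.6 and 92.8 in knockdown libraries. After it came ORM2 (0.21), S100P (0.22), EEF2K (0.23) and HSD17B2 (0.23). For ORM2 the nearest were SORCS2 (0.19), ORM1 (0.21), CCN2 (0.23), RNF157 (0.25) and CLIC4 (0.29). For CEBPD they were CLDN3 (0.0997), EMP2 (0.11), MCAM (0.11), NOTCH3 (0.12) and GMCL1 (0.12). ORM1 stood at rank 476 from CEBPD (0.45) and ORM2 at rank 1198 (0.64), so many transcripts had a profile nearer to that of CEBPD than the orosomucoids did. In the other direction, CEBPD stood at rank 68 from ORM1 and at rank 72 from ORM2, among the same 4300 transcripts. This distance rests mostly on the size of the fall, so it describes these libraries and adds no support.

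Other acute phase proteins that increase in inflammation were mostly lower in the knockdown group, by less than the orosomucoids. Of 34 such genes listed, 18 were tested without ORM1 and ORM2: 11 fell, 1 rose and 6 did not pass, with a median log2 change of -0.63 against 0.0018 over all tested transcripts. The falls were 61.1% of the list, against 27.4% of all transcripts, and the median was -0.37 with quantile normalization. The summed hepatocyte markers, given above, were lower in the same libraries on the scale kept, and their part was not tested. The protease inhibitor SERPINA3 (alpha-1-antichymotrypsin) was at 233, 226 and 226 normalized counts in scrambled libraries, against 95.9, 92.7 and 82.5 in knockdown libraries (log2 change -1.33, SE 0.13, limma adjusted p = 4.07e-06). ITIH3, an inter-alpha-trypsin inhibitor heavy chain, fell by 1.37 on the log2 scale (adjusted p = 2.71e-06). LBP, which binds bacterial lipopolysaccharide, went from 42.5, 37.0 and 38.5 to 28.4, 11.3 and 7.22 (log2 change -1.49, SE 0.41, adjusted p = 0.00882). The groups of SERPINA3, ITIH3 and LBP did not overlap. Over all tested transcripts, 30.7% had every knockdown library below every scrambled one. The ferritin light chain FTL fell by 0.84 (adjusted p = 2.81e-06) and the fibrinogen chain FGA by 0.85 (adjusted p = 5.44e-06), and FTL, FGA and HAMP likewise had groups that did not overlap. The iron hormone HAMP fell by 1.11 (adjusted p = 1.02e-05). FGG, another fibrinogen chain, was the 1 gene that rose (transcript NM_021870, log2 change 0.68, adjusted p = 0.0248). That call was lost with reads summed per gene (0.51, adjusted p = 0.0803). It was also lost when scrambled replicate 1 (0.43, adjusted p = 0.102) or knockdown replicate 2 (0.47, adjusted p = 0.111) was left out. CRP, SAA1, HP and SERPINA1 were not analysed here, and FGB had too few reads to be tested.

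Plasma proteins that decrease in inflammation also had more falls than rises. Of 17 listed, 13 were tested: 5 fell, 1 rose and 7 did not pass. The falls were 38.5% of the list, against 27.4% of all transcripts. The median log2 change was -0.15, but 0.03 with equal totals and -0.02 with quantile normalization, so its sign depends on the scaling. RBP4, the retinol carrier, which is a lipocalin like the orosomucoids, fell by 1.16 (adjusted p = 5.72e-08). The lipoprotein APOA2 fell by 0.97 (adjusted p = 3.42e-06), antithrombin SERPINC1 fell by 0.79 (adjusted p = 1.07e-05), transferrin TF fell by 0.44 (adjusted p = 0.000626) and albumin ALB fell by 0.42 (adjusted p = 0.00153). HRG, histidine-rich glycoprotein, rose by 0.85 (adjusted p = 0.00911). TTR, transthyretin, was at 0.19 (adjusted p = 0.0941), and passed as a rise without scrambled replicate 2 (0.28, adjusted p = 0.0120), with equal totals (0.36, adjusted p = 0.00455), with quantile normalization (0.33, adjusted p = 0.00994) and with the replicate block (adjusted p = 0.0382). Scaled to equal totals over the 10191 transcripts, this list had 5 falls and 4 rises. With quantile normalization it had 3 falls and 4 rises, TF and ALB then being lost (-0.02 and -0.11).

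Of 11 listed genes of the lipocalin family other than the orosomucoids, 6 were tested: 3 fell and 0 rose, with a median of -0.80. Over all transcripts 27.4% fell and 24.5% rose. LCN15 fell by 1.23 (adjusted p = 9.07e-05), and RBP4 is given above. PTGDS, prostaglandin D2 synthase, had 39, 19 and 20 reads in scrambled libraries, against 2, 3 and 1 in knockdown libraries, a pooled ratio of 0.0844 (exact 95% interval 0.0301 to 0.192, counting error only) with adjusted p = 0.000204. AMBP, the precursor of the lipocalin alpha-1-microglobulin, was at 0.15 (adjusted p = 0.126). At an unadjusted p under 0.05 there were also 0 rises, while with equal totals (0.32), quantile normalization (0.48) or voom (0.15, adjusted p = 0.0461) AMBP passed as 1 rise.

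Of the C/EBP family, CEBPA, CEBPB, CEBPE and DDIT3 were not analysed here. CEBPG, a family member without an activation domain, did not pass, at an unadjusted p under 0.05 or with voom either. It was at 10.8, 7.85 and 13.1 normalized counts in scrambled libraries, against 15.7, 19.2 and 11.3 in knockdown libraries (log2 change 0.50, SE 0.38, adjusted p = 0.300), at a depth of 7 to 17 reads. CEBPZ, which was listed with the family by its symbol but lacks its basic leucine zipper, was at -0.07 (SE 0.10, adjusted p = 0.590).

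Of the IL-6 and gp130 pathway, 13 of 24 listed genes were tested: 4 fell, 3 rose and 6 did not pass, with a median of -0.05. These are 30.8% and 23.1% of the tested genes, near the 27.4% and 24.5% of all transcripts, so the counts are no result about the pathway. SOCS3, the feedback inhibitor that STAT3 induces, had 30, 26 and 34 reads in scrambled libraries, against 10, 4 and 3 in knockdown libraries, without overlap. Its pooled ratio was 0.207 (exact 95% interval 0.116 to 0.351, counting error only) and its log2 change -2.24 (SE 0.42, adjusted p = 0.00073). BCL3, an IkB family co-regulator, fell by 0.76 (adjusted p = 0.000232) and JUNB, an AP-1 subunit, by 0.71 (adjusted p = 0.00105). The leukemia inhibitory factor receptor LIFR (NM_001127671) fell by 1.35 (adjusted p = 0.00416), but with reads summed per gene its log2 change was -0.63 (adjusted p = 0.0758). The kinases JAK1 (0.35, adjusted p = 0.00184) and JAK2 (0.89, adjusted p = 0.00719) and the phosphatase PTPN11 (0.25, adjusted p = 0.0120) rose. PTPN11 lost its call without scrambled replicate 1 (adjusted p = 0.0501) or knockdown replicate 1 (adjusted p = 0.0551). With equal totals the median of the list was 0.12 and with quantile normalization 0.05, so its sign depends on the scaling. STAT3, IL6R and IL6ST were not analysed here.

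Of 23 listed genes of the IL-1, TNF and NF-kB input, 9 were tested: 4 fell and 1 rose. RELA, NFKB1, MYD88, TRAF6 and IKBKB were not among those tested. The median of the 9 was -0.23, but -0.06 with equal totals and -0.14 with quantile normalization. Over all transcripts 27.4% fell and 24.5% rose. The subunit RELB fell by 0.83 (adjusted p = 0.000144) and the adaptor TRAF2 by 0.55 (adjusted p = 0.000363). The inhibitor NFKBIA (-0.23, adjusted p = 0.0336) and the kinase IRAK2 (-0.29, adjusted p = 0.0415) were called by a narrow margin, and both calls were lost with equal totals (-0.06 and -0.12) or quantile normalization (-0.12 and -0.23), which leave 2 falls and 1 rise, a share of falls below that of all transcripts. NFKBIA also lost its call without scrambled replicate 1 or 3 or any 1 knockdown replicate (adjusted p from 0.0602 to 0.0994), and IRAK2 without any 1 scrambled replicate or knockdown replicate 1 or 2 (from 0.0518 to 0.176). The receptor TNFRSF1A rose by 0.35 (adjusted p = 0.00203).

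Of 17 listed genes of the glucocorticoid receptor and its response, 9 were tested: 3 fell and 0 rose, with a median of -0.16. The falls were 33.3% of the tested genes, near the 27.4% of all transcripts. They were the clock gene PER1 (-1.61, adjusted p = 5.13e-08), the receptor co-chaperone FKBP4 (-1.39, adjusted p = 5.51e-08) and HSD11B2, which inactivates cortisol (-1.31, adjusted p = 8.34e-07). The targets TSC22D3 (0.52, adjusted p = 0.0571), KLF9 (-0.16, adjusted p = 0.266) and DUSP1 (-0.27, adjusted p = 0.0788) did not pass and are named after their values were seen. TSC22D3 was the 1 rise at an unadjusted p under 0.05, and voom called 0 rises. There was 1 rise with median-of-ratios scaling, reads summed per gene or the replicate block, and without scrambled replicate 3 or knockdown replicate 2. Equal totals gave 2 rises beside 3 falls and a median of 0.01, and quantile normalization a median of -0.05. NR3C1, the receptor, was not analysed here.

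Of 20 listed hepatocyte transcription factors, 11 were tested: 5 fell (45.5%, against 27.4% of all transcripts) and 1 rose (9.09%, against 24.5%). The median was 0.13, but 0.30 with equal totals and 0.08 with quantile normalization. DBP (-1.72, adjusted p = 1.78e-07) and HLF (-1.45, adjusted p = 3.52e-07), which like CEBPD have a basic leucine zipper, fell. NR0B2 (-1.35, adjusted p = 1.68e-06) and FOXA3 (-0.79, adjusted p = 1.79e-06) fell, and ONECUT2 (0.39, adjusted p = 0.00254) rose. The fifth fall was FOXA1 (-0.48, adjusted p = 0.00158), named after its value was seen. With equal totals there were 3 rises and 5 falls. HNF4A was not analysed here.

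Orosomucoids carry branched, sialylated and fucosylated N-glycans. Of 20 genes listed for building them, 11 were tested: 4 rose (36.4%, against 24.5% of all transcripts) and 0 fell (against 27.4%). The median was 0.25, and 0.43 with equal totals. The listed sialyltransferases ST6GAL1, ST3GAL3, ST3GAL4 and ST3GAL6 and the fucosyltransferases FUT6 and FUT8 were not analysed here. At an unadjusted p under 0.05 B4GALT1, named after its value was seen, was the 1 fall, and voom called 0 falls. There was 1 fall at a mean of at least 30, with the replicate block and without knockdown replicate 1. Without scrambled replicate 3 there were 2 rises. The branching enzyme MGAT5 (0.40, adjusted p = 0.000621), CMAS, which activates sialic acid (0.32, adjusted p = 0.00667), MGAT4A (0.25, adjusted p = 0.0246) and the fucosyltransferase FUT4 (0.46, adjusted p = 0.0396) rose. FUT4 lost its call when scrambled replicate 1 (adjusted p = 0.0677), 2 (0.105) or 3 (0.0626) or knockdown replicate 3 (0.189) was left out, and MGAT4A when scrambled replicate 3 (0.0871) or knockdown replicate 2 (0.0989) was.

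**Figure D5:**
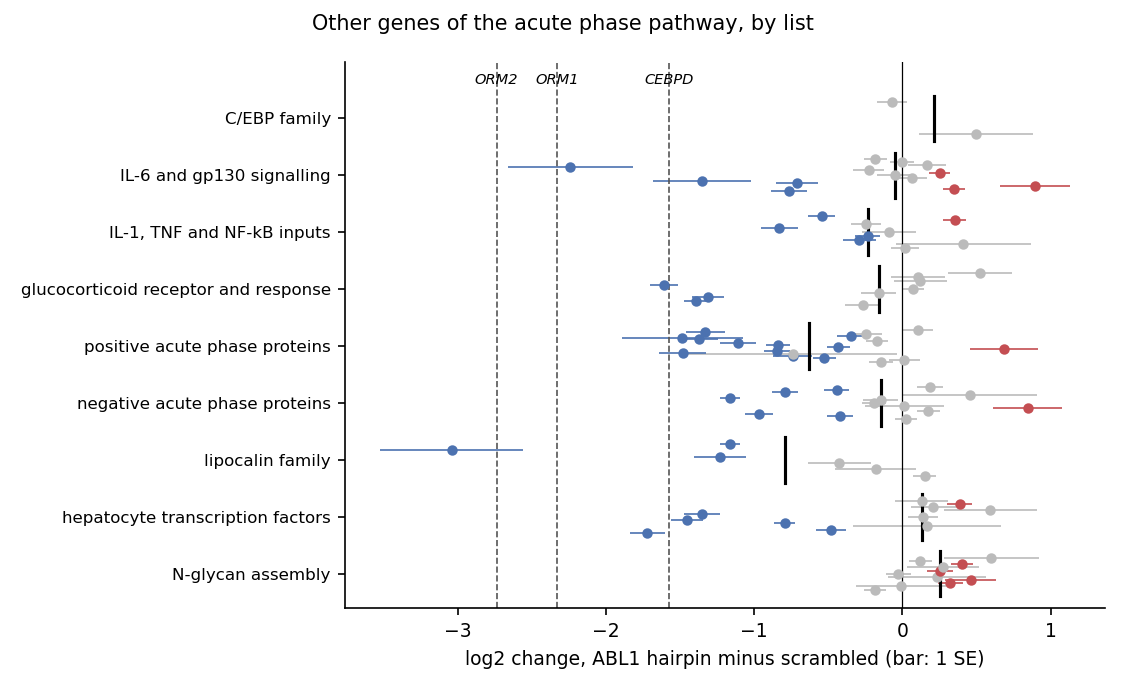
Log2 change (x axis, ABL1 hairpin minus scrambled) of each tested gene of 9 lists, with bars of 1 SE, blue for genes that fell, red for genes that rose and grey for those that did not pass, a black line at each list's median, and dashed lines at ORM1, ORM2 and CEBPD. PTGDS, at the far left of the lipocalin row, is the 1 listed gene beyond ORM2, and the positive acute phase proteins have a median of -0.63.

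The chromosomal neighbours of the orosomucoid genes had small changes. Of 6 tested genes that start within 500 kb of them, ZNF618 (-0.28, adjusted p = 0.0181), COL27A1 (-0.30, adjusted p = 0.00233) and ATP6V1G1 (-0.23, adjusted p = 0.0173) fell, and these calls were lost with equal totals (-0.10, -0.13 and -0.05). ZNF618 also lost its call without scrambled replicate 1 (adjusted p = 0.0687) or knockdown replicate 1 (0.0629) or 2 (0.0606), and ATP6V1G1 without knockdown replicate 1 (0.0884). There were 0 rises, also at an unadjusted p under 0.05, while AMBP passed as a rise with equal totals (0.32), quantile normalization (0.48) or voom (0.15). KIF12 (0.00, adjusted p = 0.979) and TMEM268 (-0.12, adjusted p = 0.518) did not pass. The 1 tested neighbour of CEBPD, UBE2V2, fell by 0.68 (adjusted p = 6.16e-05).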

How the data were processed

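Total RNA of 6 Huh7 samples was sequenced from libraries with inserts of 250 to 300 bases, per the labels' protocols. HISAT2 2.0.4, HTSeq 0.6.1 and build hg38 are named in the submitters' processing notes, without role or order. The deposited signal is, from its values, a scaled square root: a squared value equals a whole number plus 0.375, multiplied by a constant of its library. Whole reads were recovered within 0.05 for 100% of rows, and the normalized count is the reads multiplied by that constant relative to the geometric mean over libraries, so the authors' own scale factors are kept. Transcripts with a mean of at least 10 were tested with limma 3.58.1 (R 4.3.3, eBayes with trend) on log2(normalized count + 1). Tests were two-sided, adjusted by Benjamini-Hochberg over 8600 transcripts, with a threshold of 0.05. Log2 changes are on that scale. The procedure was also run on simulated counts. Far fewer transcripts changed there than in these libraries, so that run does not check the choice of scaling.

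A listed gene is represented by its tested transcript of highest mean. The members, lists and rules were chosen with earlier results of these data known. Named were fixed pathway genes, up to 4 rises and 4 falls per list by smallest p (or 2 if none passed), all tested neighbours within 500 kb and the 5 nearest profiles per gene. Positions and transcript lengths come from GENCODE 29 (GRCh38). The alternatives tried were other pseudocounts, filters, scalings, variance models, a stricter threshold, reads summed per gene, a replicate block and leaving out each library.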

Additional observations from a re-analysis of the deposited data

How the results depend on the processing

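ORM1, ORM2 and CEBPD stayed lower in the knockdown group under every alternative run for them, and moved by less than 1 SD of their replicates. When each library was left out in turn, the log2 changes ran from -2.54 to -2.19 for ORM1, from -2.95 to -2.61 for ORM2 and from -1.71 to -1.45 for CEBPD. In the same runs 1852 to 1944 transcripts rose and 2069 to 2202 fell. Positive acute phase genes then had 0 to 1 rise and 11 to 13 falls, negative ones 1 to 2 rises and 5 to 6 falls, and IL-6 pathway genes 2 to 3 rises and 4 falls. Equal totals raised the median of all transcripts by 0.17 on the log2 scale, and rises made up 63.6% of the calls instead of 47.2%. Positive acute phase genes had 2 rises with equal totals and 0 without the variance trend, at a threshold of 0.01 or with reads summed per gene. Negative ones had 4 rises with equal totals, 4 rises and 3 falls with quantile normalization, and 2 rises with the replicate block. IL-6 pathway genes had 2 falls at a mean of at least 30, where fewer genes were tested. The cause of the other changes was not tested.

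Same-numbered libraries of the groups had correlations of their deviations of 0.0471, 0.0765 and 0.0768. Those of the other pairs ran from -0.153 to 0.0886. With 3 replicates per group, these values cannot show whether same-numbered libraries were paired. With the replicate number as a block 2301 transcripts rose and 2520 fell, against 2105 and 2355 without it. Of 63 other named genes, 14 changed their call under at least 1 of 18 alternatives and 0 reversed. The per-kilobase level of CEBPD with its RefSeq length was added after seeing the data. Genes with few reads, such as SOCS3, PTGDS and CEBPG, are limited by depth.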
